A study of Homo sapiens with 4 samples.

Results

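The ATP-binding cassette (ABC) genes were compared between EGFP negative and EGFP positive MDA-MB-231 cells. Members were all gene names made of ABC, a subfamily letter from A to G and a number, and 46 of the 61471 gene names in the count tables met that rule. ABC proteins filed under other symbols were not members, and the peptide transporters TAP1 and TAP2 are described with the companion genes. MDA-MB-231 is an established human line of triple-negative breast cancer. All cells carried the wild-type genotype label and had been transfected with H2B-EGFP, a histone fused to a green fluorescent protein, and with CMV-RFP, a red fluorescent marker under a promoter of viral origin. The 2 EGFP positive libraries came from cells whose status label gave no increased extravasation, and the 2 EGFP negative libraries from cells whose label gave increased extravasation, the step in which tumour cells leave a vessel. EGFP state and extravasation state therefore cannot be told apart, and the labels do not say whether the replicates were grown separately, so the spread between them may be technical.

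ABC proteins use ATP to move substrates across membranes or, in subfamilies E and F, to act on ribosomes. Subfamily A and most of G carry sterols and phospholipids, and several C members and ABCG2 export drugs and conjugated metabolites. B members serve the cell surface, mitochondria and lysosomes, and most D members bring fatty acids into peroxisomes. The drug exporters are best known in breast cancer cells for lowering the intracellular level of chemotherapy agents.

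Total counts were 11445076 to 12635576 per library, and 3 counts, used here as the floor of detection, were equal to 0.241 to 0.260 CPM (each library scaled to 1 common total, after the TMM correction for library composition). ABC genes held 0.103 to 0.106% of the counts in each library. Of 9 genes that define the line, VIM, CD44, EGFR, KRT8, KRT18, KRT19 and ERBB2 passed the filter on low counts, while the hormone receptor genes ESR1 and PGR had 0 to 2 counts. Most markers of other cell types were near the floor. Among those above it, KDR of the endothelial list had 152, 153, 131 and 94 counts (edgeR adjusted p = 0.0673), COL1A1 of the fibroblast list 272, 245, 279 and 162 (edgeR adjusted p = 0.304) and CD8A of the leukocyte list 24, 26, 14 and 22 (edgeR adjusted p = 0.4). Single genes higher in EGFP negative were 4: CSF1R (23, 8, 81 and 74 counts in EGFP positive 1 and 2 and EGFP negative 1 and 2), PECAM1 (9, 9, 39 and 43), PDGFRB (37, 21, 73 and 52) and SERPINA1 (4, 0, 16 and 33). The call of PDGFRB was lost when EGFP positive library 2 (edgeR adjusted p = 0.337) or EGFP negative library 1 (edgeR adjusted p = 0.0631) was left out, and with DESeq2 (adjusted p = 0.164). Some other markers of those cell types, CD3E, CD4 and MS4A1 for leukocytes, CDH5 and ERG for endothelium, DCN and FAP for fibroblasts and APOB and TTR for hepatocytes, were at 0 in all 4 libraries. Of the 10 leukocyte markers only 5 had at most 3 counts in every library, so CSF1R and CD8A were not the only ones above the floor. Summed CPM of the 10 leukocyte markers was 3.56 to 5.28 in EGFP positive and 9.56 to 10.5 in EGFP negative libraries, that of the 8 endothelial markers 14.2 to 14.6 and 12.1 to 14.1, that of the 8 fibroblast markers 23.4 to 27.7 and 18.8 to 28.8, that of the 5 hepatocyte markers 0.0868 to 0.346 and 1.29 to 2.91, and that of the 5 erythroid markers 0.260 in both EGFP positive libraries by HBA2 and ALAS2 and 0 in EGFP negative. Their part in the ABC results was not tested.

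Of the 46 members, 24 passed the filter and 22 did not. In the edgeR quasi-likelihood test 3 members were higher in EGFP negative (ABCC3, ABCB9 and ABCB8), 2 were lower (ABCF1 among them) and 19 were not called. These 5 of 24 are 20.8%, against 18.9% of the 16413 genes tested, so the share called is near the background. In bulk RNA a change of level per cell cannot be told apart from a change in the share of cells that use the gene. Of all genes tested, 9.4% were called higher and 9.46% lower. The groups did not overlap in CPM for 15 of 24 members (62.5%), against 57.4% of all genes. The median log2 fold change (EGFP negative over EGFP positive) was -0.0070 over the 24 members and -0.0028 over all genes tested, and the median absolute change was 0.19 and 0.22. ABCC3 was the 1 member that changed by more than 1 on the log2 scale, a size reached by 919 genes (5.60%). In subfamily C, 1 of 6 tested genes rose and none fell, and in subfamily F, 1 of 3 fell and none rose. No tested gene of subfamilies A (5), D (3), E (1) or G (1) was called in the main edgeR fit, by DESeq2 or by limma-voom. Some were called in alternative edgeR fits, as given below. At an unadjusted p below 0.05 in the main edgeR fit there were 1 in A (ABCA7), 0 in D, 0 in E and 1 in G (ABCG2).

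**Figure D1:**
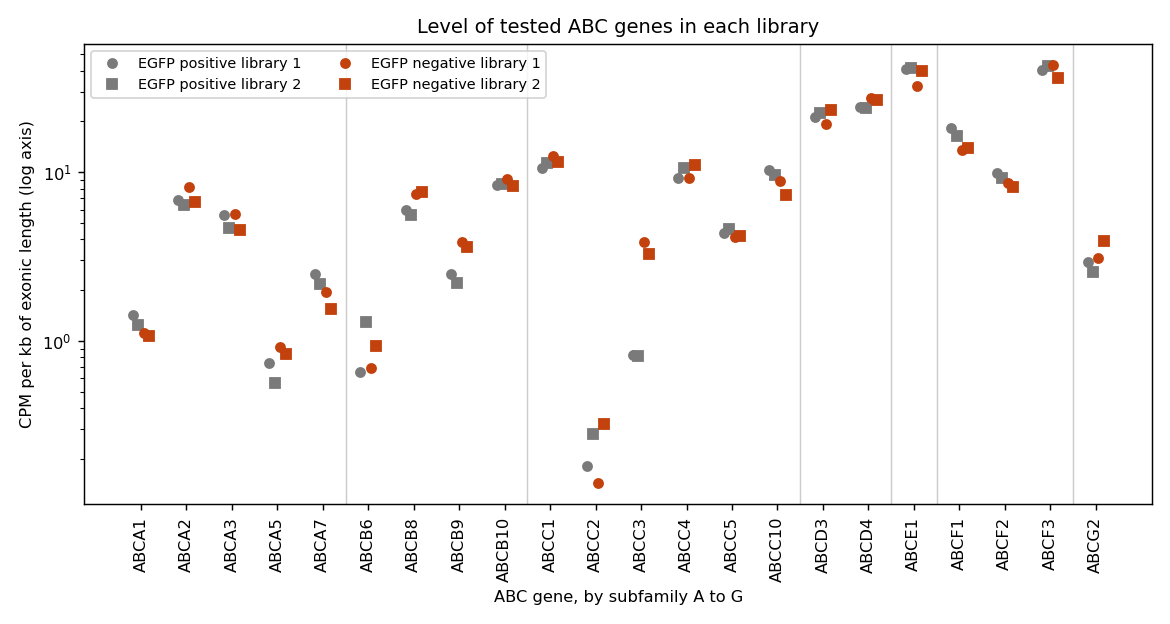
CPM per kb of exonic length (log axis) of tested ABC genes in each library, grey for EGFP positive and orange for EGFP negative, circles for library 1 and squares for library 2. ABCF3 and ABCE1 are the 2 highest in both groups, and ABCC3 is the gene whose 2 groups lie farthest apart.

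Levels per kb of exonic length allow different genes to be compared, but less so for members that share exons with other genes. The shared length was 94.2% for ABCB6, 44.2% for ABCB9 and 42.3% for ABCF2, so their levels per kb and ranks are uncertain. The order of the highest members was the same in both groups: ABCF3, ABCE1, ABCD4, ABCD3, ABCF1 and ABCC1. ABCF3 stood at 41.6 and 39.6 CPM per kb in EGFP positive and EGFP negative, and ABCE1 at 41.0 and 36.0. These 2 ribosome-bound proteins were not separated beyond the spread of the libraries, as the plot of levels by library shows. ABCC2 was the lowest tested member in both groups, at 0.232 CPM per kb. Summed over all members the level was 241 CPM per kb in EGFP positive and 237 in EGFP negative.

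The drug and conjugate exporters are the 12 members ABCB1, ABCB5, ABCC1 to ABCC6, ABCC10 to ABCC12 and ABCG2, and 7 were tested. One of the 7, ABCC3, rose and none fell. ABCC3, on chromosome 17 (50634777 to 50692253, GRCh38, plus strand), encodes MRP3, an exporter of organic anions and glucuronide conjugates. It had 61 and 60 counts in EGFP positive libraries 1 and 2 and 307 and 245 in EGFP negative libraries 1 and 2. In CPM these were 5.28, 5.21, 24.7 and 21.0, so both EGFP negative libraries lay above both EGFP positive libraries by a gap far wider than the spread within either group. The group means were 5.24 ± 0.0489 and 22.8 ± 2.59 CPM (SD, n = 2 each). Its log2 fold change was 2.12 (SE 0.17), a 4.35-fold difference with a 95% interval of 3.36 to 5.63 (edgeR adjusted p = 1.37e-06). Among all genes called higher, 97 had a larger fold change. ABCC3 stayed called in 11 of 11 alternative fits, with log2 fold changes of 2.00 to 2.24.

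ABCC3 moved from rank 22 to rank 18 of the tested members per kb. Its share of the summed per-kb level of the drug exporters was 2.13 and 2.03% in EGFP positive against 9.16 and 7.84% in EGFP negative libraries. The exporter with the largest share, ABCC1, held 27.4 and 28.3% in EGFP positive and 29.6 and 27.4% in EGFP negative libraries. ABCC1 encodes MRP1, an exporter of glutathione conjugates and many drugs, and its mean level was 74.2 and 80.7 CPM (log2 fold change 0.12, 95% interval -0.08 to 0.33, edgeR adjusted p = 0.43). ABCC4 (MRP4), which exports cyclic nucleotides, had 62.1 and 63.9 CPM (log2 fold change 0.04, 95% interval -0.20 to 0.28). ABCC5 (MRP5), also an exporter of cyclic nucleotides, had 46.9 and 43.5 CPM (log2 fold change -0.11, 95% interval -0.33 to 0.11). Both intervals leave room for modest differences in either direction.

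ABCG2, the breast cancer resistance protein, had 173 and 150 counts in EGFP positive and 197 and 234 in EGFP negative libraries. Its groups did not overlap, but the difference (13.99 and 17.9 CPM, log2 fold change 0.36, 95% interval 0.01 to 0.71) was not called (edgeR adjusted p = 0.153). Without EGFP negative library 1 it was called (log2 fold change 0.52), in a fit that called more of all genes than the main fit. It was not called without EGFP positive library 1 or 2 (log2 fold change 0.46 and 0.26) or with DESeq2 (adjusted p = 0.432). ABCC10 (MRP7), an exporter of taxanes, had 654 and 607 counts in EGFP positive and 607 and 471 in EGFP negative libraries. Its means were 54.6 and 44.6 CPM (log2 fold change -0.29, 95% interval -0.54 to -0.05, edgeR adjusted p = 0.0913). The difference was called without EGFP negative library 1 (log2 fold change -0.44), but not without EGFP positive library 1 or 2 (-0.24 and -0.34). ABCC2 (MRP2), the apical exporter of conjugates, had 13, 20, 11 and 23 counts. Its mean of 1.43 CPM in both groups came with an interval of -1.02 to 0.99, too wide to show a change smaller than about that size.

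ABCB1, which encodes the multidrug exporter P-glycoprotein, had 0 and 6 counts in EGFP positive libraries 1 and 2 and 1 and 0 in EGFP negative libraries 1 and 2. It was thus at or near the floor of 3 counts in 3 libraries and was not tested. The other untested exporters were ABCC6 (5, 6, 9 and 8 counts), ABCB5 (0 in all), ABCC11 (0, 0, 0 and 1) and ABCC12 (0, 2, 1 and 0). The near-identical copies ABCC6P1 and ABCC6P2 had 0 to 6 and 2 to 8 counts, so the counts of ABCC6 are uncertain.

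**Figure D2:**
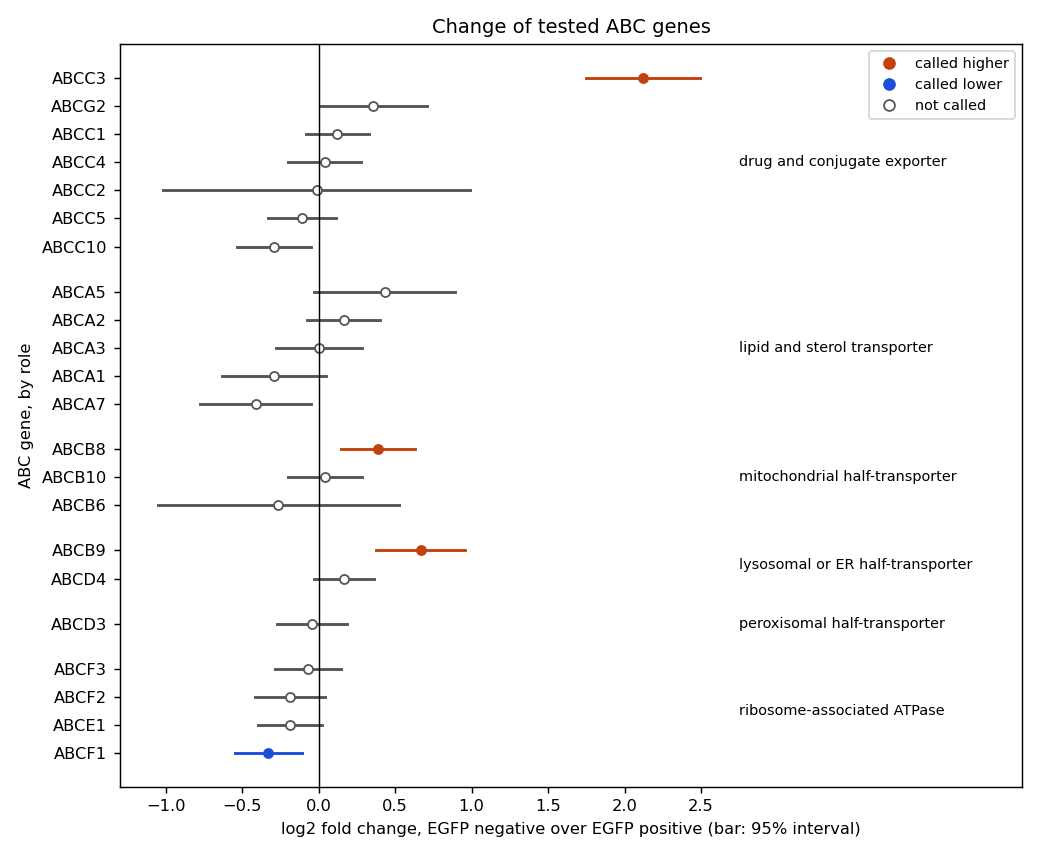
The log2 fold change of tested ABC genes (EGFP negative over EGFP positive, point) with its 95% interval (bar), grouped by role. Filled points passed the test; ABCC3 at 2.12 stands apart, and open points were not called.

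The lipid and sterol transporters number 18 members, of which 5, all of subfamily A, were tested. None was called in the main edgeR fit, by DESeq2 or by limma-voom, and 1 had an unadjusted p below 0.05 in the main edgeR fit. Their median log2 fold change was 0.0002. ABCA1, which loads cholesterol onto apolipoprotein, had 186 and 161 counts in EGFP positive and 156 and 140 in EGFP negative libraries. Its means were 15.0 and 12.3 CPM (log2 fold change -0.29, 95% interval -0.63 to 0.05, edgeR adjusted p = 0.232), and the groups did not overlap. ABCA7, a phospholipid transporter related to ABCA1, had 15.9 and 11.9 CPM (log2 fold change -0.41, edgeR adjusted p = 0.11). Without EGFP negative library 1 that difference was called (log2 fold change -0.60), but not without EGFP positive library 1 or 2 (-0.31 and -0.50).

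The other 3 handle lipids inside the cell. ABCA2, of late endosomes and lysosomes, had 54.9 and 61.4 CPM (log2 fold change 0.16, edgeR adjusted p = 0.361), with 1 EGFP negative library at 67.6 and the other at 55.3 CPM. It was called without EGFP negative library 2, the lower of those (log2 fold change 0.31), but not without EGFP positive library 1 or 2 (0.21 and 0.11). ABCA3, of lamellar bodies, had 34.7 CPM in both groups (95% interval of the log2 fold change -0.28 to 0.28). ABCA5 had 6.02 and 8.11 CPM (log2 fold change 0.43, edgeR adjusted p = 0.195) and shares 318 bp of exonic sequence with ABCA10.

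ABCG1, which passes cholesterol to high-density lipoprotein, had 0 and 0 counts in EGFP positive and 3 and 0 in EGFP negative libraries, so it was not detectable above the floor. ABCA13 had 8 and 15 counts in EGFP positive and 3 and 3 in EGFP negative libraries, and ABCG4, a relative of ABCG1, had 13 and 9 against 3 and 5. Both were below the filter. In the fit without a filter ABCA13 had an unadjusted p of 0.00949 and an edgeR adjusted p of 0.0945, and ABCG4 had 0.0282 and 0.198. ABCA8 had 0 and 0 against 1 and 5 counts, ABCA12 had 0 and 2 against 4 and 2, and ABCA10 had 3 and 3 against 1 and 3. ABCA4 (1 to 3 counts), ABCA6 (0 to 1), ABCB4 (0 to 2), ABCB11 (0 to 1) and ABCG8 (0 to 1) were within the floor, and ABCA9 and ABCG5 were at 0 in all libraries.

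Among the mitochondrial members described here, ABCB8 rose, and ABCB10 and ABCB6 were not called. ABCB8, on chromosome 7 (151028422 to 151047782, plus strand), is the ATP-binding part of a mitochondrial potassium channel. It had 354 and 329 counts in EGFP positive and 474 and 459 in EGFP negative libraries, or 30.6, 28.6, 38.1 and 39.3 CPM, with no overlap between groups. ABCB8 thus had a log2 fold change of 0.39 (SE 0.11, edgeR adjusted p = 0.0269), a 1.31-fold difference.

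The call of ABCB8 sat close to the threshold. It was lost without EGFP positive library 1 (edgeR adjusted p = 0.145) or 2 (0.318), with DESeq2 (adjusted p = 0.117) and with no filter (edgeR adjusted p = 0.061). ABCB10, which serves haem synthesis, had 32.8 and 33.7 CPM (log2 fold change 0.04, 95% interval -0.20 to 0.28). ABCB6, a porphyrin transporter, had 23, 45, 26 and 33 counts (log2 fold change -0.26, 95% interval -1.05 to 0.52), and 94.2% of its exonic length is shared with a read-through gene, so its level is uncertain. Copies of ABCB10 (ABCB10P1, ABCB10P3 and ABCB10P4) had 2 to 10 counts each.

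ABCB9 and ABCD4 sit in lysosomes or the endoplasmic reticulum, and 1 of these 2 rose. ABCB9, on chromosome 12 (122920951 to 122981649, minus strand), carries peptides into lysosomes and is related to TAP1 and TAP2. It had 206 and 182 counts in EGFP positive and 346 and 299 in EGFP negative libraries, or 17.8, 15.8, 27.8 and 25.6 CPM, and the groups did not overlap. The log2 fold change was 0.67 (SE 0.14, 95% interval 0.38 to 0.96, edgeR adjusted p = 0.00321), a 1.59-fold difference. It kept its call in 10 of 11 alternative fits and lost it without EGFP positive library 2 (log2 fold change 0.58, edgeR adjusted p = 0.064). Opposite-strand genes cover 44.2% of its exonic length, among them OGFOD2 (21, 24, 39 and 39 counts) and ARL6IP4 (0 in all libraries). The counting used no strand information, so reads there cannot be told apart by strand. Whether such reads were credited to ABCB9 or to no gene was not tested, so its level is uncertain. ABCD4, which works with LMBRD1 to move cobalamin out of lysosomes, had 74.9 and 83.9 CPM without overlap (log2 fold change 0.17, 95% interval -0.03 to 0.36, edgeR adjusted p = 0.237).

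ABCD3, a peroxisomal importer of fatty acyl chains, had 83.5 and 81.2 CPM (log2 fold change -0.04, 95% interval -0.27 to 0.19). It was not called (edgeR adjusted p = 0.84), and both groups overlapped. ABCD2 was at 0 in all libraries.

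The 4 ribosome-associated ATPases were all tested, and their log2 fold changes were all below 0, from -0.33 to -0.07, of which 1 passed the test. Their summed level was 110 CPM per kb in EGFP positive and 97.8 in EGFP negative. ABCF1, on chromosome 6 (30571393 to 30591522, plus strand), takes part in translation initiation. It had 731 and 650 counts in EGFP positive and 585 and 563 in EGFP negative libraries, or 63.2, 56.4, 47.0 and 48.2 CPM, without overlap. This gave a log2 fold change of -0.33 (SE 0.10, edgeR adjusted p = 0.0381), and the call was lost without EGFP positive library 1 (edgeR adjusted p = 0.474) or 2 (0.126), with DESeq2 (adjusted p = 0.135) and with no filter (edgeR adjusted p = 0.0797).

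ABCE1, which splits ribosomes after termination, had 1826 and 1854 counts in EGFP positive and 1570 and 1794 in EGFP negative libraries. Its means were 159 and 139.9 CPM (log2 fold change -0.19, 95% interval -0.40 to 0.02, edgeR adjusted p = 0.211). ABCE1 was called without EGFP negative library 2 (log2 fold change -0.33), but not without EGFP positive library 1 or 2 (-0.20 and -0.18). ABCF2 had 43.2 and 38.0 CPM (log2 fold change -0.19, edgeR adjusted p = 0.264). ABCF2 shares 42.3% of its exonic length with the read-through gene ABCF2-H2BK1, and its copy ABCF2P1 had 169 to 195 counts, so its level is uncertain. ABCF3, a partner in sensing amino acid shortage, had 102.9 and 97.8 CPM (log2 fold change -0.07, edgeR adjusted p = 0.693). It was called without EGFP negative library 1 (log2 fold change -0.22), but not without EGFP positive library 1 or 2 (-0.11 and -0.04).

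The remaining members were at or near the floor. ABCC8 and ABCC9, the regulatory subunits of ATP-sensitive potassium channels, had 0 counts in all libraries and 2, 5, 2 and 0 counts. The pseudogene ABCC13 had 1 count in EGFP negative library 1 and none elsewhere. Among all 22 untested members, 5 were at 0 in every library, 15 had at most 3 counts in every library and the highest count of any was 15.

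Start regions of ABCB8 and ABCB9, which rose, and of ABCF1, which fell, are shown so that the letters around the starts of these called members can be compared. They come from RefSeq promoter windows (GRCh38.p14), among which ABCC3 had none, so the start of ABCC3 is not shown. Each line gives the longest run of bases of the 300-base window (250 before to 50 after the start) that lie in no annotated exon, 5′ to 3′ on the gene's strand. Capitals mark the letters of the GC box (searched as GGGCGG), of the E-box motif (searched as CACGTG) and of the TATA box motif (searched as TATAAA) on either strand, and matches may overlap. The ABCB8 run is chr7:151028200-151028421 (plus strand), the ABCB9 run chr12:122966510-122966713 (minus strand, at the most downstream of its 3 RefSeq start sites) and the ABCF1 run chr6:30571274-30571392 (plus strand).
ABCB8: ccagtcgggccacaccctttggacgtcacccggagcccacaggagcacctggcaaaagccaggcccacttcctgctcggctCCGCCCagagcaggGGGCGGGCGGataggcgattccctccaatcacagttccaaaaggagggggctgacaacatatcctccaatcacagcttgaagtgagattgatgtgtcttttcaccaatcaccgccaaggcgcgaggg
ABCB9: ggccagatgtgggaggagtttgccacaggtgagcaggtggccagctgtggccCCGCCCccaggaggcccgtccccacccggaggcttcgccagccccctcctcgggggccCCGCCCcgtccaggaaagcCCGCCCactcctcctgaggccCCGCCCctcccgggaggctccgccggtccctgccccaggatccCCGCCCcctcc
ABCF1: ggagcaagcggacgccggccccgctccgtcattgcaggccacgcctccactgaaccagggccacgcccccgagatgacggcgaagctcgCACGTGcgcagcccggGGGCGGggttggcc
The ABCB8 stretch holds the GC box at 3 places, the ABCB9 stretch at 5 and the ABCF1 stretch at 1, and the ABCF1 stretch holds the E-box motif, which is its own reverse complement. The printed ABCB8 and ABCB9 stretches do not hold it, but of the other 2 windows of ABCB9, not printed, 1 holds 1 E-box motif and 1 GC box and the other 1 GC box, so the counts depend on the start site. Over all 35116 promoter windows of that length 45.0% held the GC box, 7.26% the E-box motif and 11.5% the TATA box motif. RefSeq windows were matched for 20 of the 24 tested members, 28 windows in all. Of these, 20 held the GC box, 7 the E-box motif and 4 the TATA box motif. Over all 35 members with windows, 25 of 53 windows held the GC box, 9 the E-box motif and 8 the TATA box motif. The 35116 windows were not limited to tested genes, so they are no matched background for tested members. In addition, 2 ABCG2 windows overlap and count the same GC boxes and E-box motif again. No enrichment is read from these counts. These matches describe letters and show no binding.

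Genes that start within 500 kb of 4 called members were examined after the members' values were seen. Of all genes tested, 18.9% were called in either direction. Around ABCC3, 2 of 15 tested neighbours rose, ACSF2 (log2 fold change 0.64, edgeR adjusted p = 0.00598) and SPATA20 (0.39, edgeR adjusted p = 0.0167), both upstream, and 13 were not called. The median of the neighbours was -0.04, and the largest change among them was 0.64. A smaller change than that of ABCC3 shows little, since ABCC3 was the member that changed most. Around ABCB9, 2 of 20 rose and 1, HIP1R, fell (log2 fold change -0.37, edgeR adjusted p = 0.0137). The gene ENSG00000280138, starting 92.9 kb downstream, went from 4.20 to 22.5 CPM (log2 fold change 2.42, edgeR adjusted p = 5.76e-07), a larger change than that of ABCB9 itself, and PITPNM2 rose by 0.45 on the log2 scale (edgeR adjusted p = 0.0403). Around ABCB8 1 of 12 neighbours rose (NUB1) and around ABCF1 1 of 22 fell (HCG18). These neighbour calls were not repeated under the alternative fits.

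**Figure D3:**
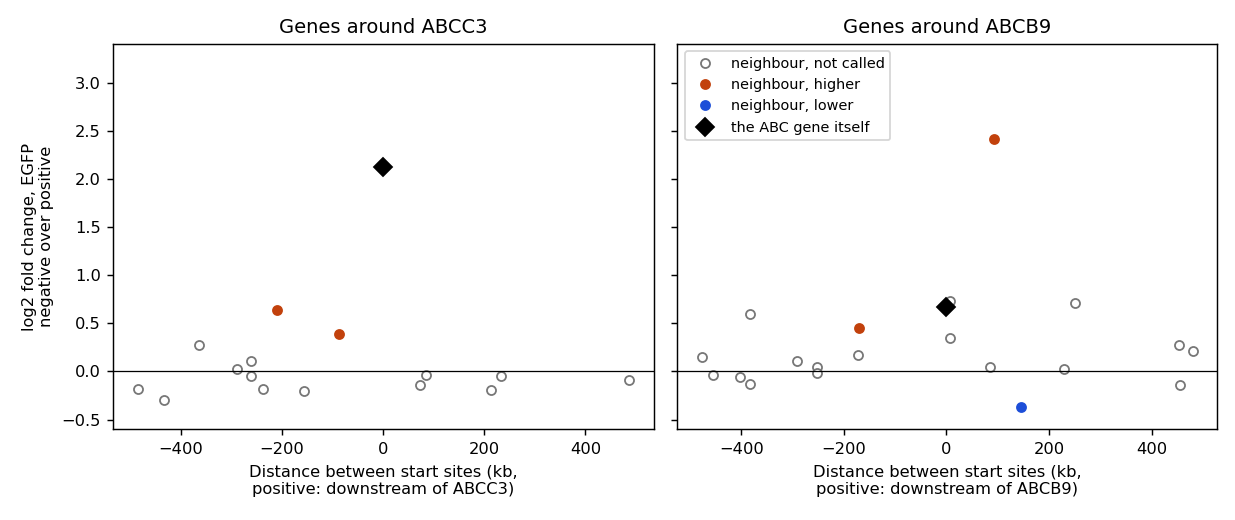
The log2 fold change (EGFP negative over EGFP positive) of the tested genes within 500 kb of ABCC3 (left) and ABCB9 (right) against the distance of their start from that of the ABC gene (black diamond at 0). ABCC3, the member that changed most, is at 2.12 and its neighbours reach 0.64. One neighbour of ABCB9, at 2.42, lies above ABCB9 at 0.67.

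Companion genes of the same pathways were taken as lists. Each main-fit count is given beside the 9.4% of all genes called higher and 9.46% called lower. The share of all genes called either way, 18.9% in that fit, was 11.8% with DESeq2 and 7.57% with no filter. It fell without an EGFP positive library and rose without an EGFP negative library. A list's shift between fits is therefore not read as particular to that list. Among 17 tested solute carriers and other carriers of drugs and organic ions, 6 rose and 2 fell (median log2 fold change 0.36). The 2 that fell became 0 without EGFP positive library 1 or 2, with DESeq2 and with no filter, and 4 without EGFP negative library 2. The organic anion transporter gene SLCO4A1 rose from 71.6 ± 3.66 to 229.8 ± 16.8 CPM (SD, n = 2 each; log2 fold change 1.68, edgeR adjusted p = 2.11e-08). Its relative SLCO3A1 rose from 0.909 to 11.3 CPM (14, 7, 156 and 117 counts, edgeR adjusted p = 2.36e-06), and the major vault protein gene MVP rose from 107 to 174 CPM (edgeR adjusted p = 4.77e-05). Of 21 tested genes for glutathione and conjugating enzymes, only some of which supply substrates of the MRP exporters, 7 rose and 3 fell (median 0.28). These became 2 and 1 without EGFP positive library 1 or 2, 7 and 2 or 11 and 2 when EGFP negative library 1 or 2 was left out, and 4 and 1 with DESeq2 or with no filter. GSTM3 fell from 39.2 to 20.1 CPM (edgeR adjusted p = 5.75e-05), UGT8 rose from 21.9 to 39.7 (edgeR adjusted p = 0.000146) and MGST2 from 12.7 to 20.03 (edgeR adjusted p = 0.00528; 0.0693 without EGFP positive library 2). Of 13 tested regulators of drug exporter genes, 4 rose and none fell, and 1 had an unadjusted p below 0.05 downward. HIF1A, a transcription factor of the response to low oxygen, rose from 277 to 431 CPM (edgeR adjusted p = 0.000136). FOXO1 rose from 3.16 to 6.37 CPM (edgeR adjusted p = 0.0165), a call lost without EGFP positive library 2 (0.182) and with DESeq2 (adjusted p = 0.105). EPAS1 rose from 54.6 to 69.0 CPM (edgeR adjusted p = 0.0273), a call lost without EGFP positive library 1 (0.273) or 2 (0.227), with DESeq2 (adjusted p = 0.0818) and with no filter (0.0615). DESeq2 and limma-voom called none of this list lower, but 3 were lower without EGFP negative library 1. The 4 that rose became 2 with DESeq2 and 2 or 1 when EGFP positive library 1 or 2 was left out.

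In the main fit none of the 5 tested lipid transporters was called, too few to set against their companion genes. Of 24 tested genes for sterol sensing and efflux, 5 rose and 1 fell (median 0.04). The counts were 2 and 1 without EGFP positive library 2, and 5 and 3 or 8 and 2 when EGFP negative library 1 or 2 was left out. PPARD, a nuclear receptor for fatty acids, fell from 159.6 to 84.1 CPM (edgeR adjusted p = 6.25e-06). SREBF1, the regulator of lipid synthesis, rose from 86.0 to 165 CPM (edgeR adjusted p = 9.16e-06) and RXRA, the partner of the sterol-sensing LXR receptors, from 95.6 to 157 (edgeR adjusted p = 0.000205). Of 22 tested peroxisomal partners of the D subfamily, 6 rose and 2 fell (median 0.10). They were 2 and 2 or 4 and 2 when EGFP positive library 1 or 2 was left out, and 8 and 3 or 7 and 3 when EGFP negative library 1 or 2 was. ACOX2, an oxidase of branched chains, rose from 5.07 to 13.9 CPM (edgeR adjusted p = 0.000154), CAT (catalase) from 54.9 to 87.2 (edgeR adjusted p = 0.00018), and ACSL4, which activates arachidonic acid, fell from 212.5 to 146.8 (edgeR adjusted p = 0.000942).

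Of 28 genes for mitochondrial iron, haem and iron-sulphur clusters, 2 rose and 2 fell (median -0.02). The iron importer SLC25A37 rose from 99.7 to 122 CPM (edgeR adjusted p = 0.0289; 0.401 without EGFP positive library 1 and 0.225 without 2). ALAD, of haem synthesis, rose from 48.7 to 62.1 CPM (edgeR adjusted p = 0.0305; 0.0875 and 0.456 without those libraries), and CIAO1, of cytosolic iron-sulphur assembly, fell from 115 to 94.0 (edgeR adjusted p = 0.0325; 0.263 and 0.332). None of this list was called with DESeq2, with no filter, or without EGFP positive library 1 or 2, while 2 rose and 5 fell, or 5 rose and 2 fell, when EGFP negative library 1 or 2 was left out. Of 11 genes for cobalamin handling, 2 rose and 1 fell (median 0.05). LMBRD1, the lysosomal partner of ABCD4, rose from 10.8 to 18.1 CPM (edgeR adjusted p = 0.0043), as did the carrier gene TCN2, from 2.77 to 6.95 (edgeR adjusted p = 0.00222). CD320, the cell-surface receptor, fell from 165 to 121 CPM (edgeR adjusted p = 0.00607; 0.0954 without EGFP positive library 1), and 2 genes were lower without EGFP negative library 1.

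Of 21 genes for ribosome recycling and the general control response, 0 rose and 3 fell in the edgeR fit (median -0.08), with 0 upward at an unadjusted p below 0.05 and 0 upward by DESeq2 or limma-voom. Leaving out a library moved these counts: 0 rose and 1 or 0 fell when EGFP positive library 1 or 2 was dropped, and 2 or 0 rose and 6 fell when EGFP negative library 1 or 2 was. EIF5B, which joins ribosomal subunits, fell from 298 to 221 CPM (edgeR adjusted p = 0.0062; 0.0853 without EGFP positive library 2). EIF3J fell from 105 to 80.8 CPM (edgeR adjusted p = 0.00894; 0.0733 without EGFP positive library 1 and 0.228 without 2), and EIF2AK4, the kinase that senses uncharged tRNA, from 141 to 117 (edgeR adjusted p = 0.0396; 0.289 and 0.411, 0.073 with no filter and 0.0502 with upper quartile scaling, and 0.0872 with DESeq2).

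Of 8 genes of the peptide transporter TAP and its loading complex, 3 rose and 2 fell (median 0.31). The peptide-trimming enzyme gene ERAP2 rose from 5.46 to 11.4 CPM (edgeR adjusted p = 0.00192). PDIA3 rose from 108 to 138 CPM (edgeR adjusted p = 0.00871; 0.196 without EGFP positive library 1 and 0.148 without 2) and ERAP1 from 65.9 to 86.0 (edgeR adjusted p = 0.0184; 0.224 and 0.0952). The 2 that fell were the ABC transporter genes TAP1, from 6.50 to 3.73 CPM (log2 fold change -0.80, edgeR adjusted p = 0.0349), and TAP2, from 14.3 to 9.80 (log2 fold change -0.55, edgeR adjusted p = 0.0353). They lie outside the rule for named genes and were picked after their values were seen. Neither was called with DESeq2, with no filter, or without EGFP positive library 1 or 2, where no gene of the list was lower and, in the last pair of fits, 1 was higher. Without EGFP negative library 2, 1 gene of the list was lower. The pore genes of ATP-sensitive potassium channels were not tested, and the higher of the 2, KCNJ8, had 0.217 and 0.758 CPM.

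**Figure D4:**
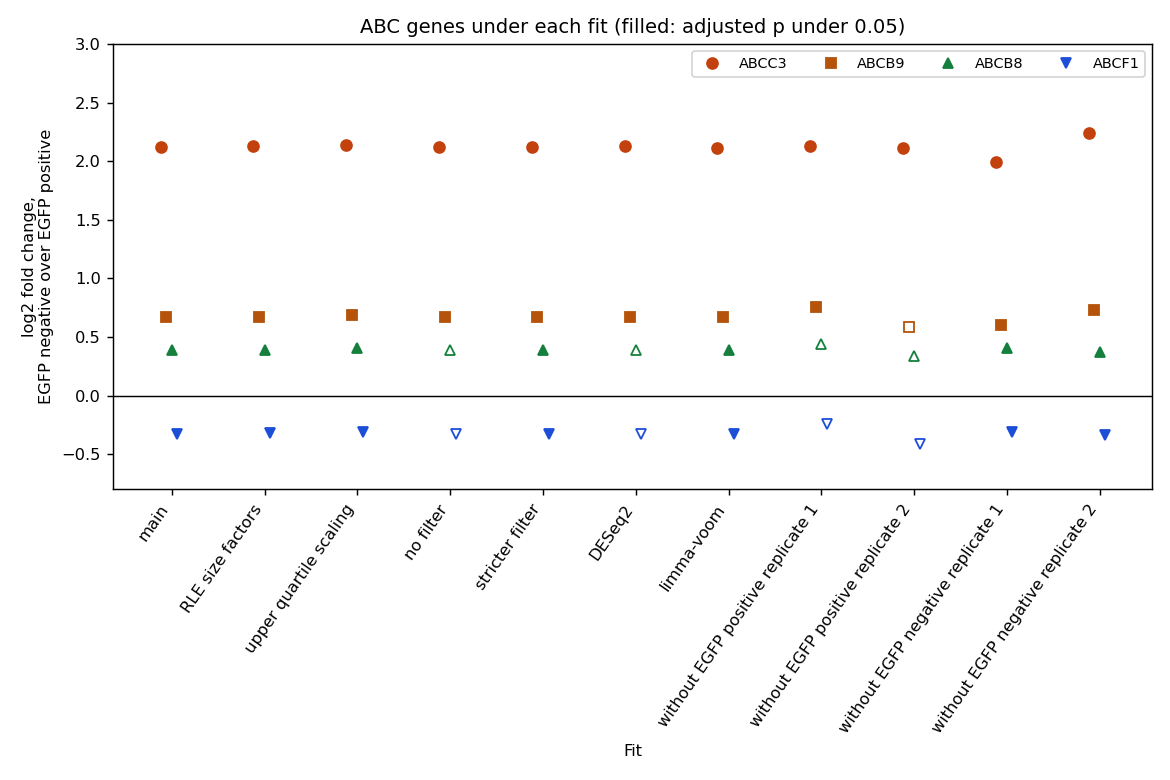
The log2 fold change (EGFP negative over EGFP positive) of 4 called ABC genes in the reported fit (main) and under alternative fits. The fit with the replicate number as a block is not drawn. Points are filled where the adjusted p was under 0.05. ABCC3 is filled throughout, ABCB9 is open in 1 fit, and ABCB8 and ABCF1 are open in several.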

How the data were processed

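RNA of 4 MDA-MB-231 libraries was polyA-selected for a stranded library kit, per the labels' protocols. The authors deposited raw fragment counts per gene name, made with featureCounts 2.0.1 in paired mode over exons of the GENCODE 46 basic annotation with no strand option, per the file headers. The aligner is not given in the sources used here. The submitters' processing notes name GRCh37 and hg19, while the tables' coordinates are those of GRCh38: 53 of 53 RefSeq GRCh38.p14 promoter windows of members lay within 1 kb of the tabulated gene. The build of the alignment was not determined.

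Groups came from the labels. filterByExpr (minimum count 10, minimum total 15) left 16413 genes. The test was edgeR 4.0.16 (R 4.3.3) quasi-likelihood with TMM scaling and group as the only term, Benjamini-Hochberg adjusted over all genes tested at 0.05, with log2 fold changes of EGFP negative over EGFP positive. The biological coefficient of variation was 7.52%. Replicate counts differed beyond sampling noise (chi-square per degree of freedom 2.12 in EGFP positive and 6.65 in EGFP negative), so none was taken as a duplicate. CPM used TMM-scaled totals. The standard error of a member's log2 fold change was 0.0903 to 0.469, median 0.114. The intervals given for log2 fold changes and fold differences came from the standard errors of the edgeR fit. They therefore include its estimate of the spread between libraries. The floor of detection, set in counts, covers counting error only. No molecular identifiers are recorded in the labels.

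Members and lists were chosen with earlier results of these data known. The rule for named genes covered every member and, from each companion list, named up to 3 called genes with the smallest adjusted p, or, with none called, the 1 with the highest mean CPM. Values of some members and markers are not reported here. Marker genes were named where called or defining. Alternatives were RLE and upper quartile scaling, no filter, a stricter filter (a summed count of 100 and 1 CPM in 2 libraries), limma-voom (limma 3.58.1), DESeq2 1.42.0, the replicate number as a block, and each library left out in turn. Without a library its group has 1 library, assumed to vary like the other group. The scripts were tested on simulated data. Figures were drawn with matplotlib 3.10.9.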

Additional observations from a re-analysis of the deposited data

How the results depend on the processing

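No result changed direction while called, in any of the 11 alternative fits. The 24 tested members gave 239 values with the same call, 15 that lost it and 9 that gained it. The named companion genes and markers gave 338 that kept their call or lack of it and 35 that lost it. The 3 members called higher became 1 to 4 when each library was left out in turn, and the 2 called lower became 0 to 4. Members called lower numbered 1 with upper quartile scaling, 0 with no filter and 0 with DESeq2. Over all genes, the 1543 higher became 968 with DESeq2 and 720 to 2477 with a library left out, and the 1552 lower became 928 and 715 to 2465. The 51 called companion genes became 33 with no filter, 32 with DESeq2 and 22 to 68 with a library left out. The lowest of these ranges came without EGFP positive library 1 or 2, the highest without EGFP negative library 1 or 2. The cause was not tested.

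With the replicate number as a block, 3 members were higher and 5 lower, the added ones being ABCA7, ABCC10 and ABCE1, and over all genes 2297 were higher and 2407 lower. Deviations from the group means of same-numbered libraries correlated at 0.138 across genes. With 2 pairs, and no label saying what a number stands for, this does not show whether the numbers pair the libraries. No other call of a member changed.

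Low counts limit the 22 untested members, whose highest count in any library was 15, and ABCC2 and ABCB6, with intervals over 1 log2 unit wide. For ABCB6, 94.2% of the exonic length is shared with a read-through gene. Whether depth or that overlap kept its counts low was not tested.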
